A study of Hipposideros armiger with 2 samples.

Results

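Genes of iron storage, iron transport and the control of the iron hormone hepcidin were examined in the liver-labelled libraries of 2 great Himalayan leaf-nosed bats (Hipposideros armiger). The members were 10 gene names: HAMP, HFE, TFR2, TF, TFRC, FTH1, FTL, SLC40A1, SLC11A2 and BMP6. Assembled genes were taken where the authors' best Swiss-Prot match carried one of these names, whatever its letter case. This gave 9 of the 10 names among the 12783 names in the tables, and 20 of 55378 assembled genes. No assembled gene named BMP6 was among those analysed here. An assembled gene is a cluster of transcripts built from the reads without a genome, so 1 gene can be split over several of them.

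Both libraries form 1 group, CW, and both are labelled as wild type and as exposed to heavy metals. The CW bats came from a cave at Chunwan, and the design text describes adult males, taken as separate animals. The Yingde cave was not analysed here, and no other exposure was set against CW. RNA was enriched by poly(A) capture and sequenced, and the tables hold 18741210 expected counts for replicate 1 and 18778331 for replicate 2.

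Iron has no regulated route of excretion in mammals, so balance is set at its entry into plasma. The liver hormone hepcidin, encoded by HAMP, binds the iron exporter ferroportin (SLC40A1) on gut and macrophage cells and causes its breakdown. Hepatocytes read plasma iron through transferrin and its receptors and read tissue iron through BMP6, a signal from liver endothelium, and both routes act on HAMP transcription. Iron inside cells is held by ferritin, a shell of heavy (FTH1) and light (FTL) chains.

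The liver label was first set against markers. Levels are given as TPM, transcripts scaled for length to a library total near 1000000. All 12 hepatocyte markers were found, with a summed level of 12507 TPM in replicate 1 and 391 TPM in replicate 2. Lung epithelium markers, of which 10 of 10 were found, summed to 12361 TPM in replicate 1, against 19677 TPM in replicate 2. No marker of either list was at 0 in either library. RNA of hepatocyte genes was therefore plentiful in replicate 1 and sparse in replicate 2, while RNA of lung genes was plentiful in both. In bulk RNA, fewer cells of a type and less RNA per cell cannot be told apart. Which tissue or mix of tissues each library holds was not tested. The levels below are therefore those of libraries labelled as liver, not of liver alone.

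Among the iron genes, HAMP, TFR2 and TF were over 2-fold higher in replicate 1 than in replicate 2, and the other members that could be compared lay within 2-fold. For TF this depends on which assembled genes are counted under its name. Ratios between the libraries are log2 ratios of replicate 1 over replicate 2, taken on CPM + 1, counts scaled to a library of 1000000, after scaling by the trimmed mean of M values (TMM), with the median of all names removed. They were computed for names with a mean of at least 1 CPM. Ratios of TPM had a median of -0.33 over all names, which was removed likewise unless stated. Of the 9 names found, 8 passed this filter, 3 were over 2-fold higher in replicate 1 and 0 were over 2-fold lower. Over all 11289 names tested, 5.16% were over 2-fold higher in replicate 1 and 0.0266% were over 2-fold lower. The median log2 ratio was 0.30 over the 8 members and 0.0 over all names tested. With 1 library against 1 library there is no replicate check and no p-value, and the 95% intervals given below are exact binomial intervals that cover counting error only.

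**Figure D1:**
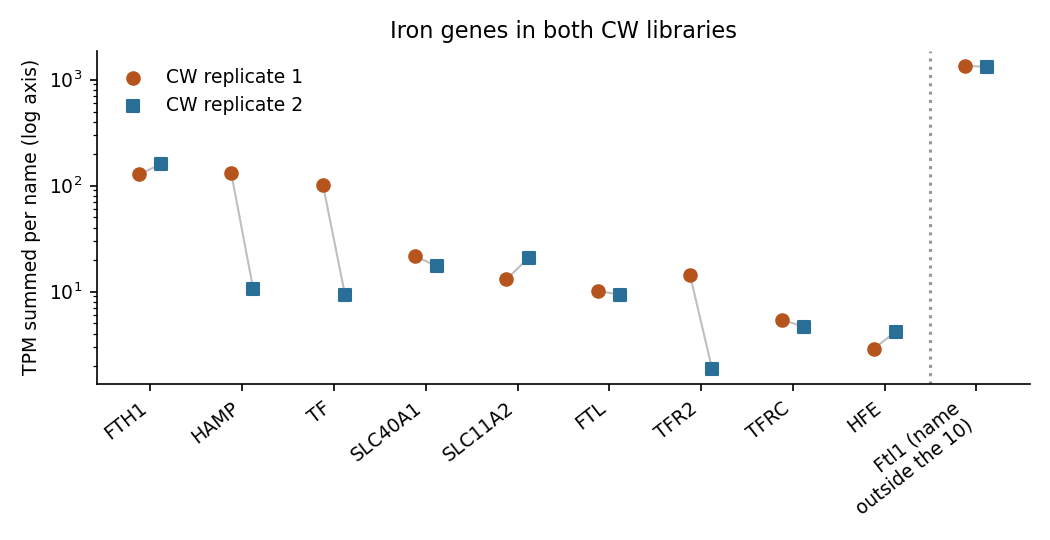
Level of each iron gene in both CW libraries, as TPM summed over all assembled genes of a name (log axis), with circles for replicate 1 and squares for replicate 2. HAMP, TF and TFR2 are lower in replicate 2, at 10.6, 9.36 and 1.87 TPM, while the assembled gene named Ftl1, right of the dotted line, is at 1347 TPM in replicate 1, against 1323 TPM in replicate 2.

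The order of the levels differed between the libraries. Averaged over both, FTH1 was highest at 144 ± 22.8 TPM (mean ± SD over n = 2 libraries, as in all such values). HAMP followed at 71.3 ± 85.8 TPM and TF at 55.5 ± 65.2 TPM, both with an SD above the mean. SLC40A1 was at 19.5 ± 3.1 TPM, SLC11A2 at 16.9 ± 5.5, FTL at 9.73 ± 0.52, TFR2 at 8.11 ± 8.8, TFRC at 5.04 ± 0.54 and HFE at 3.53 ± 0.92. Values of neighbours in this order overlapped between libraries, except for SLC11A2 above FTL and TFRC above HFE. HAMP ranked 1 of 9 in replicate 1 and 4 in replicate 2, and TFR2 ranked 5 in replicate 1 and 9 in replicate 2. In replicate 2, 74.0% of the HAMP TPM stood in 1 assembled gene of 2436 bases. Whether that one holds sequence of a neighbouring gene was not tested. HFE ranked 9 in replicate 1 and 8 in replicate 2, so the gene low in both libraries kept its place near the bottom.

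HAMP encodes the precursor of hepcidin. Its name summed to 132 TPM (1022 expected counts) in replicate 1, against 10.6 TPM (224 expected counts) in replicate 2. The log2 ratio was 2.35 (95% interval 2.15 to 2.55), and on TPM it was 3.85. The name covered 3 assembled genes, and these did not move alike.

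The shorter one, TRINITY_DN141_c0_g2, is 393 bases long with a best match to dog hepcidin. It held 111 TPM (409 expected counts) in replicate 1, against 2.76 TPM (9 expected counts) in replicate 2. The longer one of the same assembly cluster, TRINITY_DN141_c0_g1, is 2436 bases long, groups 7 assembled transcripts and has a best match to human hepcidin. It held 20.9 TPM (613 expected counts) in replicate 1, against 7.85 TPM (215 expected counts) in replicate 2. The third, with a best match to mouse hepcidin, was listed at 0 in both libraries. The log2 ratio was 4.12 (3.75 to 4.39) for the shorter one and 1.69 (1.48 to 1.90) for the longer one, and the intervals did not overlap. The shorter one carried 40.0% of the HAMP counts in replicate 1 and 4.01% in replicate 2, so the size of the HAMP difference depends on which of them is read.

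HAMP, TF and TFR2 are genes of hepatocytes, and the hepatocyte markers moved with them. All 12 of those markers were over 2-fold higher in replicate 1; their log2 ratios had a median of 4.96 and ran from 3.84 to 5.62. The ratio of the shorter HAMP assembled gene lay inside that range, and that of the longer one lay below it. The ratios of TFR2 (1.96) and TF (1.52) also lay below it. The CPM + 1 scale understates low genes, and TFR2, at 9.56 CPM in replicate 1, could not have reached that range. In expected counts as deposited, replicate 1 over replicate 2 was 4.66 for TFR2 and 2.74 for TF. It was 39.6 for the TF assembled gene with a best match to horse, and 13.85 (FGB) to 44.7 (APOB) for the markers. The part of hepatocyte content in these iron gene differences was not tested.

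TFR2 encodes transferrin receptor 2, by which hepatocytes sense transferrin-bound iron. Its 1 assembled gene had 14.3 TPM (163 expected counts) in replicate 1, against 1.87 TPM (35 expected counts) in replicate 2. The log2 ratio was 1.96 (1.58 to 2.32), which is 3.88-fold on the CPM + 1 scale, and it was 2.41 with a pseudocount of 0.1 CPM. In TPM as deposited, replicate 1 was 7.67-fold higher. HFE encodes a membrane protein related to MHC class I that binds transferrin receptor 1 and takes part in the same sensing. It had 2.88 TPM (152 expected counts) in replicate 1, against 4.18 TPM (192 expected counts) in replicate 2. Its log2 ratio was -0.07 (-0.35 to 0.21), an interval that holds 0. RNA of TFR2 thus differed between the libraries, and RNA of HFE did not detectably. Which cells either RNA came from was not tested.

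**Figure D2:**
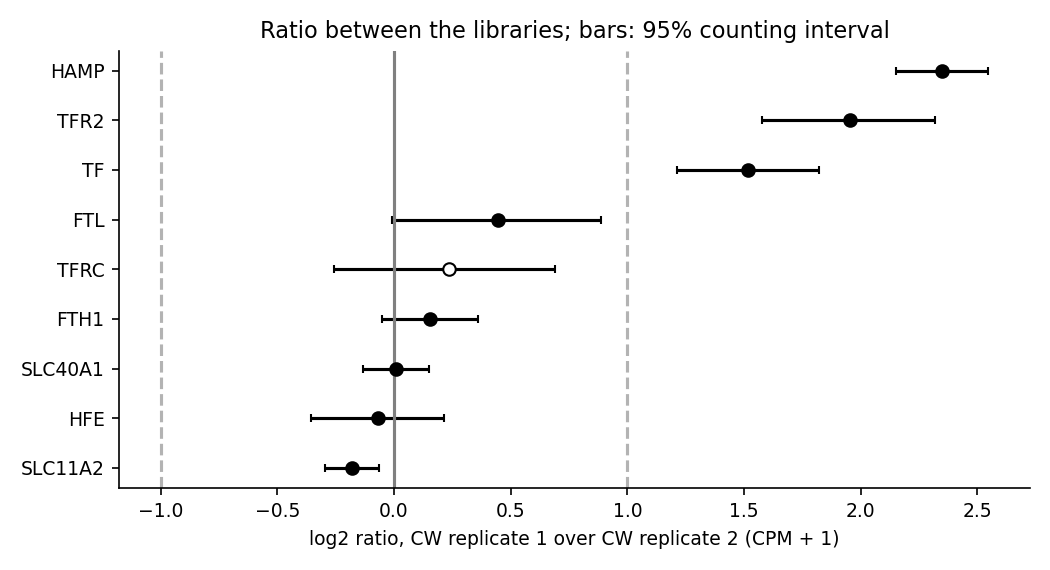
Log2 ratio of replicate 1 over replicate 2 for each iron gene on the CPM + 1 scale, with 95% counting intervals as bars and dashed lines at 2-fold. HAMP (2.35), TFR2 (1.96) and TF (1.52) lie beyond 2-fold with their whole intervals, and TFRC (open circle) had a mean below 1 CPM.

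TF encodes serotransferrin, the plasma protein that carries iron to cells and one of the major secreted products of liver. Summed over 5 assembled genes it had 102 TPM (245 expected counts) in replicate 1, against 9.36 TPM (89.5 expected counts) in replicate 2. The log2 ratio of the sum was 1.52 (1.21 to 1.82). When the 5 assembled genes named ICA, a transferrin-family protein, were counted as TF, it was 0.43, within 2-fold. With the longest of them alone it was 0.82, and whether any of them is TF was not tested. This sum hides opposite movements of its parts, which divide by the species of the best match.

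The TF assembled gene with a best match to horse (Equus caballus) is 327 bases long. It had 88.5 TPM (219 expected counts) in replicate 1, against 2.52 TPM (5.52 expected counts) in replicate 2, a log2 ratio of 3.42 (3.05 to 3.66). The one with a best match to pig (Sus scrofa), 282 bases long, had 12.8 TPM in replicate 1, against 0.93 TPM in replicate 2. It rested on 16.1 expected counts in replicate 1 and 1.0 in replicate 2 and lay below the filter, with a log2 ratio of 0.88 (0.47 to 0.99). Both were lower in replicate 2, as the hepatocyte markers were.

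The other TF assembled genes had a best match to mouse (Mus musculus), and in them replicate 2 was the higher library. The longest, of 1399 bases, had 0.35 TPM (10 expected counts) in replicate 1, against 2.45 TPM (62.4 expected counts) in replicate 2. Its log2 ratio was -1.34 (-1.72 to -0.86), and it was the 1 member assembled gene passing the filter that was over 2-fold lower in replicate 1. The one of 648 bases was at 0 counts in replicate 1 and at 18.4 counts (2.24 TPM) in replicate 2, at least 4.96-fold lower in replicate 1 when 3 counts are taken as the floor of that library. The one of 302 bases was at 0 in replicate 1 and at 2.22 counts in replicate 2, under the floor of 3 counts. The mouse-matched part summed to 10 counts in replicate 1 and 83.0 in replicate 2, and the rest of TF to 235 in replicate 1 and 6.52 in replicate 2. Mouse-matched assembled genes therefore held most of the TF counts of replicate 2, but 10 of 245 in replicate 1.

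**Figure D3:**
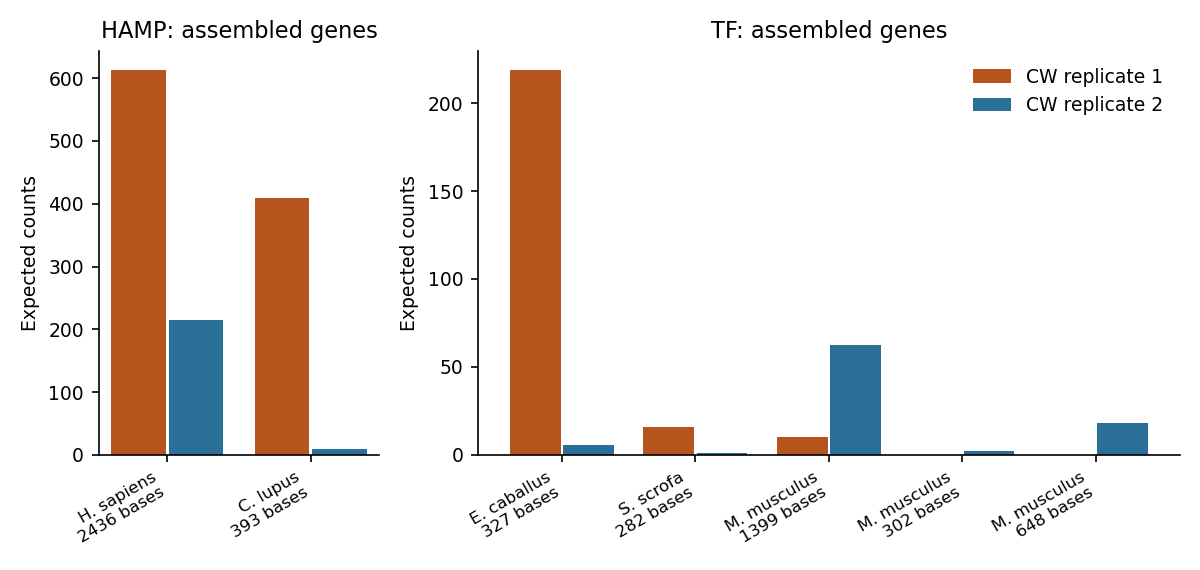
Expected counts of each HAMP and TF assembled gene above 0, named by the species of its best Swiss-Prot match and its length, in replicate 1 and replicate 2. Replicate 1 is higher in both HAMP assembled genes and in the horse-matched and pig-matched TF ones, and replicate 2 is higher in the mouse-matched TF ones, of which the longest has 62.4 counts in replicate 2 and 10 in replicate 1.

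Over the assembled genes of all members, 11 of 20 passed the filter, 4 were over 2-fold higher in replicate 1 and 1 was over 2-fold lower. Of all 22028 assembled genes tested, 6.8% were over 2-fold higher in replicate 1 and 0.0999% were over 2-fold lower. Among the 1783 tested ones with a best match to mouse, 5.44% were higher and 0.785% lower by this limit. Among the 41 matched to horse, 31.7% were higher and 0.0% lower, and among the 233 matched to pig, 22.7% were higher and 0.0% lower. A best match names the nearest protein in a database, not the animal that made the transcript. The horse-matched TF assembled gene was thus 1 of 13 among 41 to be over 2-fold higher, whereas the mouse-matched one was 1 of 14 among 1783 to be over 2-fold lower.

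TFRC encodes transferrin receptor 1, the general route of transferrin-bound iron into cells and abundant on red cell precursors. Its 2 assembled genes, 324 and 357 bases long, summed to 5.42 TPM in replicate 1, against 4.66 TPM in replicate 2. Only 14.5 expected counts in replicate 1 and 10.96 in replicate 2 lay behind these levels, and the name did not pass the filter. No difference between the libraries was detectable at this depth, with an interval of -0.26 to 0.69 for the log2 ratio. Erythroid markers, of which 5 of 8 were found, summed to 29895 TPM in replicate 1, against 36323 TPM in replicate 2, with 0 of 4 tested over 2-fold apart.

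FTH1 encodes the ferritin heavy chain, the chain with ferroxidase activity. It had 128 TPM (339 expected counts) in replicate 1, against 160 TPM (365 expected counts) in replicate 2 over 4 assembled genes. The largest of these by counts is 379 bases long, has a best match to human and had 89.5 TPM in replicate 1, against 107 TPM in replicate 2. The log2 ratio of the name was 0.15 (-0.05 to 0.36). None of the 4 was longer than 379 bases, so FTH1 was measured on fragments.

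FTL encodes the ferritin light chain, which helps to form the iron core. Under its own name it had 10.1 TPM (45 expected counts) in replicate 1, against 9.36 TPM (34.8 expected counts) in replicate 2 over 2 assembled genes matched to cattle. Its log2 ratio was 0.45 (-0.01 to 0.89). Most light chain signal stood under another name: 1 assembled gene of 908 bases, named Ftl1 after its mouse best match, had 1347 TPM in replicate 1, against 1323 TPM in replicate 2. It rested on 20249 expected counts in replicate 1 and 17378 in replicate 2, with a log2 ratio of 0.49 (0.46 to 0.52). FTH1, FTL and Ftl1 together made up 1486 TPM in replicate 1, against 1493 TPM in replicate 2. In TPM as deposited, with no median removed, ferritin was thus at nearly the same level in both libraries. With Ftl1 counted as FTL the members summed to 1669 ± 152 TPM instead of 334 ± 135.

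SLC40A1 encodes ferroportin, the iron exporter that hepcidin acts on. It had 21.7 TPM in replicate 1, against 17.3 TPM in replicate 2, while its expected counts were 709 in replicate 1 and 845 in replicate 2. Its log2 ratio on counts was 0.01 (-0.13 to 0.15), whereas on TPM it was 0.31 before the median of all names was removed and 0.64 after. HAMP RNA was over 2-fold apart on both scales and SLC40A1 RNA on neither, and a difference between these ratios beyond the spread of animals was not tested. Hepcidin acts on the ferroportin protein, which was not measured here.

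SLC11A2 encodes DMT1, which carries ferrous iron into the cell and out of endosomes. It had 13.1 TPM (1001 expected counts) in replicate 1, against 20.8 TPM (1362 expected counts) in replicate 2. The log2 ratio was -0.18 (-0.30 to -0.06), which excludes 0 by counting error alone but lies within 2-fold. It had the most expected counts of the member names in replicate 2.

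Other genes of iron handling were grouped in 6 lists of 55 genes, chosen with earlier results of these data known. Of these, 48 were found and 43 tested; 4 were over 2-fold higher in replicate 1 and 0 were over 2-fold lower. That is 9.3% higher, beside 5.16% of all names, with a median log2 ratio of 0.10. The 4 genes were HJV, TMPRSS6, ACO1 and CP. On TPM ratios CP lay within 2-fold, at 0.59, while FURIN (1.07) and STEAP3 (1.10) lay beyond it.

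On the route from BMP signals to HAMP, 15 of 17 genes were found and 14 tested, with a median log2 ratio of -0.04. HJV, the BMP co-receptor hemojuvelin that is required for normal HAMP expression, had 8.39 TPM in replicate 1, against 2.39 TPM in replicate 2. Its log2 ratio was 2.77 (2.42 to 3.11), from 311 expected counts in replicate 1 and 36.9 in replicate 2. TMPRSS6, the liver protease that restrains this route, had 5.60 TPM in replicate 1, against 0.40 TPM in replicate 2, with a log2 ratio of 1.95 (1.53 to 2.32). An activator and a restrainer of HAMP were therefore both higher in replicate 1. The other 12 tested genes of this list lay within 2-fold on counts. ID1, a transcriptional target of BMP signals, had 153 TPM in replicate 1, against 232 TPM in replicate 2, a log2 ratio of -0.16 (-0.23 to -0.09). FURIN, the protease that cuts the hepcidin precursor, had 36.3 TPM in replicate 1, against 21.4 TPM in replicate 2, with a log2 ratio of 0.51 (0.39 to 0.63).

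HJV, named HFE2 in the tables, divided by best match as TF did, though without a reversal. Its human-matched assembled gene of 2180 bases had 282 expected counts in replicate 1 and 7.0 in replicate 2, a log2 ratio of 3.71 (3.34 to 3.96). Its mouse-matched one of 883 bases had 28.7 counts in replicate 1 and 29.9 in replicate 2, a log2 ratio of 0.13 (-0.34 to 0.61). Most of the HJV counts of replicate 2 were in the mouse-matched one.

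On the interleukin 6 route to HAMP, 8 of 8 genes were found, and 0 of 7 tested were over 2-fold apart (median log2 ratio 0.09). The kinase JAK1 was at 86.9 ± 11.9 TPM, and STAT3, the transcription factor that acts on the HAMP promoter, was at 43.7 ± 0.3 TPM. IL6 itself rested on 9.0 counts in replicate 1 and 14.8 in replicate 2 and did not pass the filter.

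Of 7 chaperone and sensing genes, 6 were found and tested, with a median log2 ratio of 0.16. The cytosolic iron chaperones PCBP2 and PCBP1 were at 101 ± 12.7 and 69.4 ± 9.7 TPM. ACO1, which becomes the RNA-binding iron regulatory protein 1 when it lacks an iron-sulfur cluster, had 50.9 TPM in replicate 1, against 26.6 TPM in replicate 2. Its log2 ratio was 1.21 (1.08 to 1.35), and 1170 of its 1228 counts in replicate 1 lay in 1 assembled gene of 3741 bases. IREB2, which encodes iron regulatory protein 2 and is outside the naming rule (picked with its values in view), was at 4.15 ± 0.13 TPM, with a log2 ratio of 0.31 (0.09 to 0.54).

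Of the mitochondrial iron use list, 0 of 10 tested genes were over 2-fold apart, with log2 ratios from -0.22 to 0.45. ISCU, the scaffold of iron-sulfur cluster assembly, was at 224 ± 27.6 TPM and the iron importer SLC25A28 at 53.0 ± 15.6 TPM. Of the uptake and reduction list, 7 of 10 genes were found and 0 of 5 tested were over 2-fold apart on counts. The phagosomal metal transporter SLC11A1 was at 25.7 ± 7.5 TPM and lactotransferrin, LTF, a neutrophil granule protein, at 9.72 ± 2.6 TPM. Of the ferroxidases, CP, the plasma copper enzyme that oxidises exported iron, had 26.0 TPM in replicate 1, against 21.6 TPM in replicate 2. On counts CP was further apart, with 1517 in replicate 1 and 760 in replicate 2 and a log2 ratio of 1.24 (1.11 to 1.36). HEPHL1 lay below the filter, at 10.3 counts in replicate 1 and 22.8 in replicate 2.

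**Figure D4:**
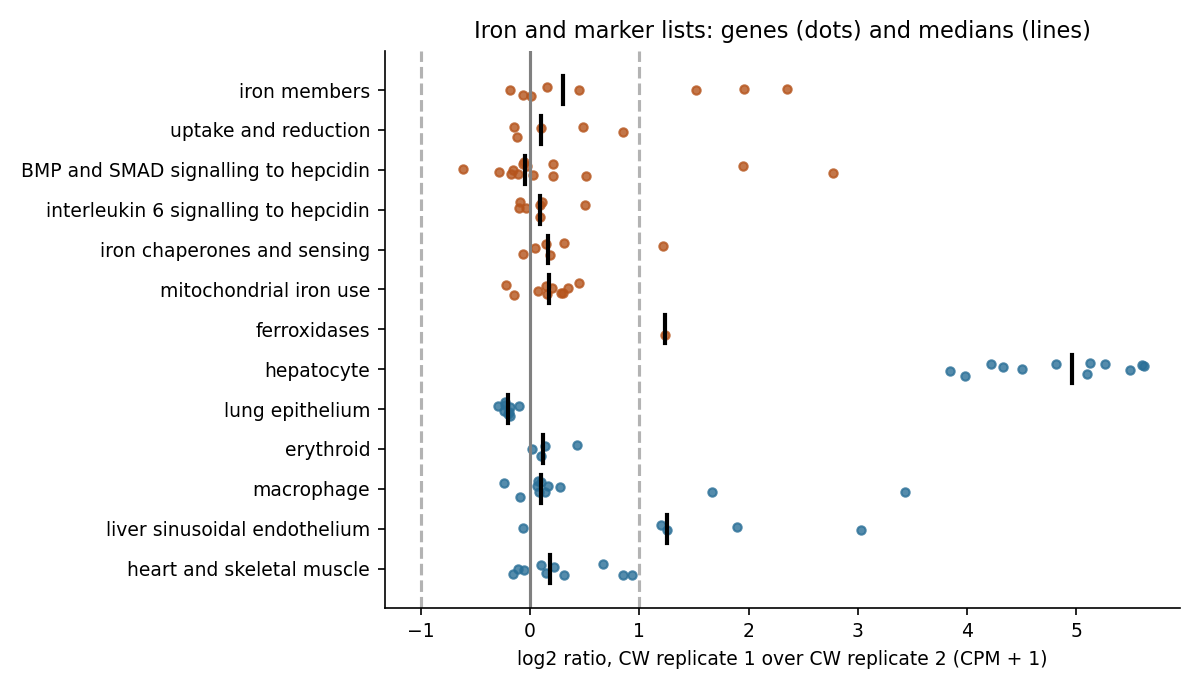
Log2 ratio of replicate 1 over replicate 2 for each tested gene of the iron lists (upper 7 rows) and of the cell type marker lists (lower 6 rows), with black lines at list medians and dashed lines at 2-fold. Hepatocyte markers have a median of 4.96 and lung epithelium markers one of -0.21. The iron genes beyond 2-fold lie above the lung median by selection. The CPM + 1 scale understates low ones, so no meaning is read from their place below the hepatocyte median.

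Markers of other cells that handle iron are given beside these values. Liver sinusoidal endothelium is known as the source of BMP6. Of its 5 markers found, 4 were over 2-fold higher in replicate 1, with sums of 135 TPM in replicate 1, against 52.1 TPM in replicate 2. Macrophages recycle iron from red cells and release it through ferroportin. Of their 11 markers, 2 were over 2-fold higher in replicate 1, MARCO at 3.43 and CD5L at 1.67 on the log2 scale. The macrophage sum was 352 TPM in replicate 1, against 408 TPM in replicate 2. Lung epithelium had 0 of 9 tested markers over 2-fold apart, and heart and skeletal muscle 0 of 10. The lung marker below the filter, SCGB1A1, had 1.0 expected count in replicate 1 and 24.0 in replicate 2, a log2 ratio of -1.045. Among these lists, hepatocyte and sinusoidal endothelium markers were the ones in which most genes were over 2-fold higher in replicate 1. On counts summed per name, HAMP, TFR2, TF, HJV, TMPRSS6, ACO1 and CP had that direction too. These names were picked for being over 2-fold apart. Of all 11289 names tested, 583 were over 2-fold higher in replicate 1 and 3 were lower, so no meaning is read from the shared direction. The mouse-matched TF assembled genes went the other way, and the mouse-matched HJV one lay within 2-fold.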

How the data were processed

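Poly(A) RNA was measured in 2 libraries of 1 group. The authors deposited 1 table per library, holding expected counts, whose column is headed count per the file headers, and a second value read as TPM. That column has no unit in its header; it summed to 996837 in replicate 1 and 996239 in replicate 2. Gene identifiers per the file headers are Trinity clusters. The submitters' processing notes name cutadapt 1.9, and mm10 for replicate 1 only; the role of mm10, the quantifier and filters are not given in the sources used here. All 10 names are symbols in the RefSeq table of ASM189008v1.

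Expected counts were rounded to whole numbers. Assembled genes without a name, with 8.7% of counts in replicate 1 and 9.69% in replicate 2, stayed in library sizes. TMM factors (edgeR 4.0.16, R 4.3.3) were 0.9097 and 1.0993. Counts and TPM were summed per name; ratios used log2(CPM + 1), which understates changes of low genes, with a limit of 2-fold. Intervals are exact (Clopper-Pearson, 95%) and, like the floor of 3 counts, cover the error of counting alone: without molecular identifiers, reads can be copies of 1 molecule. Other tools were scipy 1.17.1, pandas 2.3.3, matplotlib 3.10.9, numpy 2.4.6 and Python 3.11.15. The procedure was tested on simulated data.

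Members, lists and settings were chosen with earlier results of these data known. Named genes were the members, the 2 highest genes of each list and every list gene over 2-fold apart; others are marked. With 2 libraries, likeness of patterns could not be measured. Alternatives were a pseudocount of 0.1 CPM, library size scaling, DESeq2 1.42.0 size factors, other filters, TPM ratios, no median removal, the highest assembled gene of each name and leaving out each replicate. Counting Ftl1 as FTL, counting ICA as TF (all of its assembled genes or the longest), leaving out mouse-matched assembled genes, and applying the highest assembled gene to the count of members were added after seeing the data.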

Additional observations from a re-analysis of the deposited data

How the results depend on the processing

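The number of members over 2-fold apart was 3 and stayed 3 under 9 of its 12 alternatives. It was 2 with all 5 ICA assembled genes counted as TF, which brought TF to 0.43, and 2 with the longest alone, which brought TF to 0.82. With names at a mean of at least 10 CPM it was 1 (HAMP), because 4 members were left to test. The number of pathway genes over 2-fold apart was 4, and 3 to 5 under its alternatives; on TPM ratios CP left (0.59), and FURIN (1.07) and STEAP3 (1.10) joined. The summed TPM of the members was 334 on average, 238 without replicate 1 and 429 without replicate 2, and 1669 with Ftl1 counted as FTL, which adds that gene by construction. When TPM replaced counts, ratios moved for HAMP to 3.85, TFR2 to 2.75, TF to 3.64, SLC40A1 to 0.64 and SLC11A2 to -0.30. Reading the highest assembled gene of each name gave 4.11 for HAMP and 3.41 for TF, and leaving out mouse-matched assembled genes gave 3.45 for TF. The cause of the TPM shifts was not tested. No paired analysis was possible because both libraries belong to CW. Depth limits FTL and TFRC, whose fragments held few counts, and the spread between animals cannot be had from 1 library against 1.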

Other observations

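Transferrin-like signal also stood under a name outside the 10. The longest of 5 assembled genes named ICA, of 2179 bases, has a best match to ICA, a transferrin-family protein known in pig as an inhibitor of carbonic anhydrase, and shares the assembly cluster DN111 with a pair of mouse-matched TF assembled genes. It was noticed after its values were seen. It had 282 TPM (12513 expected counts) in replicate 1, against 226 TPM (8583 expected counts) in replicate 2, with a log2 ratio of 0.81 (0.78 to 0.85). That is above the 102 TPM in replicate 1 and 9.36 TPM in replicate 2 summed under the name TF. The ICA assembled genes did not move alike. The pig-matched one of 972 bases had more TPM, 544 in replicate 1, against 813 in replicate 2, with a log2 ratio of -0.13. Those of 880 and 227 bases had log2 ratios of 2.83 and 2.09, and the mouse-matched one of 607 bases had -0.42. Whether any of the ICA assembled genes is a transferrin transcript of the bat was not tested.

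TF was 1 of 6 names with tested assembled genes over 2-fold apart in both directions. The others were ALDH2, APOE, CA3, IGHG1 and IGHM. In each of the 6, the assembled gene lower in replicate 1 had a best match to mouse. Of all 22 tested assembled genes over 2-fold lower in replicate 1, 14 had a best match to mouse, so such a match was common among them. In all, 14 names had an assembled gene over 2-fold lower in replicate 1, and 791 had one over 2-fold higher. The direction of such a name after summing therefore depends on the mix of its assembled genes.

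The RefSeq table lists USF2 in the row before HAMP, with listed ranges that overlap; the table names no scaffold. USF2 has an assembled gene of its own, at 24.0 expected counts in replicate 1 and 24.0 in replicate 2. Whether the HAMP assembled gene of 2436 bases holds sequence of a neighbour was not tested.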
